A study of Mus musculus with 10 samples.

Results

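The mitochondrial genome of the mouse is a circle of 16299 bases that carries 37 genes, and all 37 were among the 56748 gene identifiers of the count tables. They were found by their GENCODE symbols, which begin with mt-, and comprise 13 protein genes, 2 rRNA genes and 22 tRNA genes. Expression was measured in whole hearts, both atria included, of male C57BL/6 mice bought at 8 weeks of age. The Exercise group (training hearts, 5 mice) was trained on a treadmill at a speed of 15 m/min, in 5 sessions of 120 min a week over 8 weeks, and the Control group (sedentary hearts, 5 mice) stayed sedentary. No transgene or deletion was involved, and each heart gave 1 library of poly-A RNA, so that in these tissue samples fewer cells of a type and less RNA per cell cannot be told apart.

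Mitochondrial DNA is copied and transcribed inside the organelle by its own machinery, which is encoded in the nucleus. Both strands are transcribed as long precursors, most genes being read from the heavy strand promoter, and the precursors are cut at the tRNAs that stand between the mRNAs and rRNAs. The 13 proteins are subunits of respiratory complexes I, III and IV and of the ATP synthase, which supply most of the ATP of the beating heart. Pieces of mitochondrial DNA have also been inserted into nuclear chromosomes during evolution, where they remain as copies that are not known to make respiratory proteins. Of the 37 genes, 28 are annotated on the + strand and 9 on the - strand, the latter being mt-Nd6 and 8 tRNA genes.

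A pair of count tables of the same reads were compared. STAR counted a read only if it matched 1 place in the genome, whereas RSEM shared reads among all the transcripts that they match. Whether a mitochondrial gene could be counted by STAR therefore turned in part on its nuclear copies. Reads that touch a second gene of the same strand were not counted either. In GRCm39, bases 6390 to 11042 of mitochondrial DNA stand on the minus strand of chromosome 1 (chr1:24650616-24655269) with an identity of 99.936% over 4654 aligned bases. The copy holds 7 annotated pseudogenes and differs by the substitutions A6393T and T9461C and by 1 inserted A after base 9820, positions being counted along mitochondrial DNA with the mitochondrial base first. The pairs of sequences below hold these 3 differences. They are printed because a read that lies within this stretch could tell the organelle from the chromosome 1 copy only there. Capitals mark the base that differs in mt-Co1 (chrM:6390-6419 on the + strand, chr1:24655240-24655269 on the minus strand) and at the start of mt-Nd3 (chrM:9459-9488, chr1:24652171-24652200).
mt-Co1, mitochondrial DNA: ggaAttgttttatccaactcatcccttgac
mt-Co1, chromosome 1 copy: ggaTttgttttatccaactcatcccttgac
mt-Nd3, mitochondrial DNA: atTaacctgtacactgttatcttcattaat
mt-Nd3, chromosome 1 copy: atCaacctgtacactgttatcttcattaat
The arginine tRNA gene mt-Tr (chrM:9808-9875, chr1:24651783-24651851) holds the third difference, and capitals mark the run of A that has 8 bases in mitochondrial DNA and 9 in the copy.
mt-Tr, mitochondrial DNA: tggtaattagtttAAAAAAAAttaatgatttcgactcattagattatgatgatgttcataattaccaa
mt-Tr, chromosome 1 copy: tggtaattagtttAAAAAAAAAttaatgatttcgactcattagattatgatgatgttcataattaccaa

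The reads were 100 bases long, and 4788 of the 100-base windows of mitochondrial DNA had an exact nuclear copy. In mt-Co2 (cytochrome c oxidase subunit 2), mt-Atp8 and mt-Atp6 (ATP synthase subunits), 100% of the windows that touch the gene were copied. The share was 96.7% in mt-Co3, 89.1% in mt-Nd4l, 61.3% in mt-Nd4, 60.4% in mt-Nd3 and 36.4% in mt-Co1, while mt-Nd1, mt-Nd5, mt-Nd6, mt-Cytb and mt-Rnr1 had none. A window could be counted by STAR if it had no exact copy and touched no other gene of its strand, and 6 protein genes had no such window or, in mt-Nd3, 3 of them. The highest STAR count of these 6 genes in any heart was 17, whereas RSEM, with the reads it gave to the copy included, held between 37901 and 1513150 counts per heart for each of them. In mt-Nd4, which keeps 34.1% of its windows, STAR counted 41.9% of the RSEM reads. In mt-Nd1, mt-Nd5, mt-Nd6, mt-Cytb, mt-Rnr1 and mt-Rnr2, which keep over 80% of their windows, the STAR mean lay between 99.0% and 108% of the RSEM mean.

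RSEM divided the reads of each copied gene between the organelle and its pseudogene on chromosome 1, and the division differed between genes of the same stretch. For mt-Co3 a mean of 87.7% of the reads of the pair went to the pseudogene Gm28437, and for mt-Atp6 83.5% went to Atp6-ps. The share was 8.43% for mt-Co1 and Gm29216, 50.9% for mt-Nd3 and Gm28438, 29.0% for mt-Nd4l and Gm10222, 4.93% for mt-Co2 and Gm28661, and at most 0.00249% for mt-Nd4 and Gm28439. STAR counted between 0 and 126 uniquely mapped reads per heart on any of these 7 pseudogenes. Adding the pseudogene to its mitochondrial gene removes this division from the values, and is called copy added below.

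The division also differed between hearts. For mt-Nd3 the pseudogene took 32.4%, 46.3%, 53.3%, 49.0% and 27.2% in training hearts 1 to 5, and 53.6%, 58.2%, 56.8%, 63.6% and 68.9% in sedentary hearts 1 to 5. All sedentary hearts lay above all training hearts, training heart 3 lying just below sedentary heart 1. For mt-Nd4l it took 17.5%, 25.4%, 37.4%, 17.9% and 0.000263% in training hearts and 31.8%, 35.5%, 38.8%, 48.6% and 36.8% in sedentary hearts. Here the groups overlapped through training heart 3. For mt-Co2, sedentary heart 3 gave 25.1% to the pseudogene, whereas the 9 other hearts gave between 0.0213% and 9.43%. These shares were looked at after the values were seen and were not tested between the groups.

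**Figure D1:**
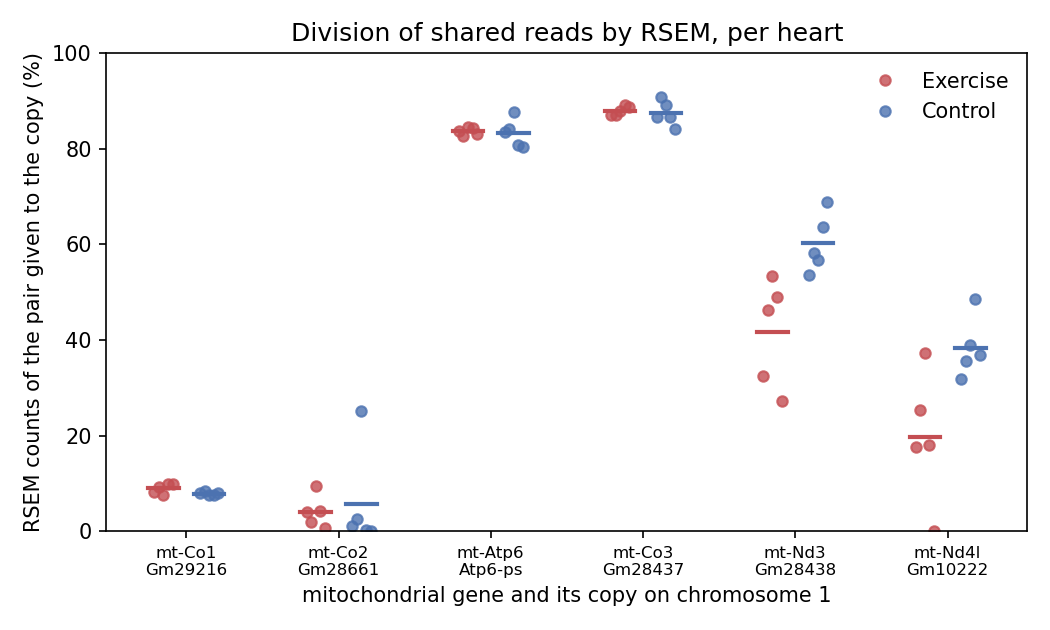
Percent of the RSEM counts of each mitochondrial gene and its chromosome 1 pseudogene that was given to the pseudogene (y axis), for 6 gene pairs (x axis); points are hearts in the order of their numbers, bars are group means of 5 hearts. The share lies above 80% for mt-Atp6 and mt-Co3 in every heart, and for mt-Nd3 the sedentary hearts lie above the training hearts.

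**Figure D2:**
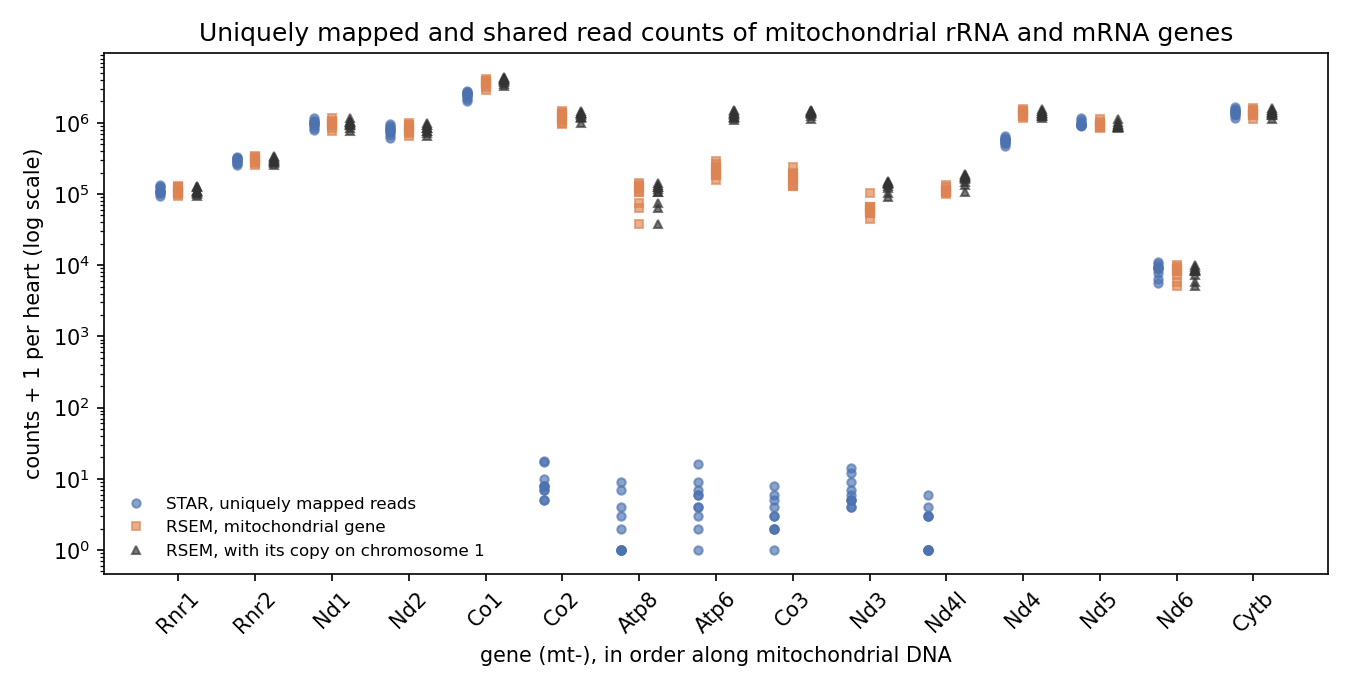
Counts + 1 per heart on a log scale (y axis) for the 2 rRNA and 13 protein genes in their order along mitochondrial DNA (x axis), by STAR, by RSEM and by RSEM with the chromosome 1 copy added; each point is 1 of 10 hearts. STAR counts of mt-Co2, mt-Atp8, mt-Atp6, mt-Co3, mt-Nd3 and mt-Nd4l are at most 17, while those of their neighbours lie at the RSEM counts or, for mt-Co1 and mt-Nd4, below them.

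The libraries held between 29461697 and 39431030 reads on the sense strand of genes. Mitochondrial genes took 21.9%, 20.9%, 20.4%, 21.7% and 21.4% of them in training hearts and 20.7%, 21.9%, 20.9%, 22.7% and 23.6% in sedentary hearts. The groups overlapped, with means of 21.3% ± 0.616 and 21.9% ± 1.23 (SD, n = 5 each), and the difference, training minus sedentary, of −0.669 percentage points was smaller than the spread among the sedentary hearts. With the copy added, RSEM placed 32.9% ± 0.879 of its counts on mitochondrial genes in training hearts and 33.6% ± 1.44 in sedentary hearts (SD, n = 5). The reads that this gained over STAR equalled between 74.2% and 76.1% of all multimapping reads of a heart.

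The markers of the tissue were present in every heart. The 8 cardiomyocyte markers summed to between 59127 and 62093 CPM (counts scaled to the library total) in training hearts and 62616 to 71190 CPM in sedentary hearts, 6 atrial markers to 5053 to 7617 CPM against 2789 to 6837 CPM, and the 5 endothelial markers to 713 to 768 CPM against 792 to 836 CPM. The 6 skeletal muscle markers summed to between 1840 and 2293 CPM in training hearts and 2333 to 2662 CPM in sedentary hearts; Myh1, Myh2, Myh4 and Tnnt3 were below 1 CPM on average, which leaves Acta1 and Ckm, both also known from heart muscle. All CPM of STAR counts use library totals corrected by the TMM factors of edgeR. The 5 fibroblast markers reached higher after training, with overlap, at 1094 to 1352 CPM against 951 to 1163 CPM in sedentary hearts. The sums of macrophage, erythroid and adipocyte markers also overlapped between the groups. Whether the shift in cardiomyocyte, endothelial, skeletal muscle and fibroblast markers has a part in the values of mitochondrial genes was not tested.

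**Figure D3:**
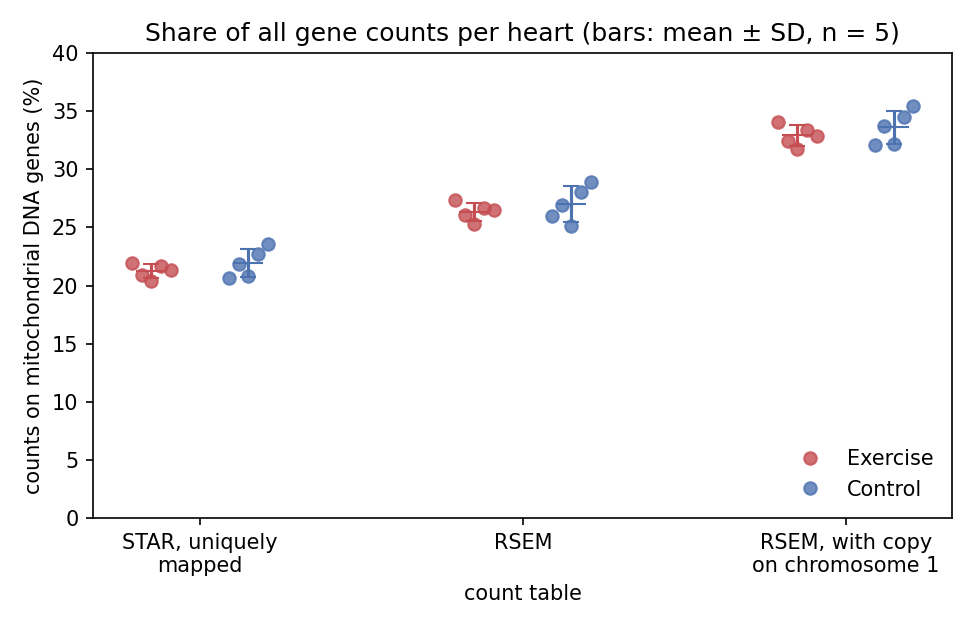
Percent of all gene counts on the 37 mitochondrial genes (y axis) by count table (x axis); points are hearts in the order of their numbers, bars are the mean ± SD of 5 hearts. The groups overlap in all 3 tables, and the level rises from 21.6% by STAR to 33.3% by RSEM with the chromosome 1 copy added, averaged over the 10 hearts.

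Protein genes made up 20.1% ± 0.521 of the STAR counts in training hearts and 20.8% ± 1.16 in sedentary hearts. The rRNA genes, whose products form the mitochondrial ribosome, took 1.17% ± 0.0963 and 1.15% ± 0.0805, and the tRNA genes 0.0204% ± 0.000851 and 0.0199% ± 0.00186 (SD, n = 5). With the copy added, the 4 complexes could be set side by side on the RSEM scale. The 3 subunits of cytochrome c oxidase (complex IV) took 15.5% ± 0.391 of all counts in training hearts and 15.5% ± 0.590 in sedentary hearts. The 7 subunits of NADH dehydrogenase (complex I) took 10.1% ± 0.264 and 10.5% ± 0.582, mt-Cytb (complex III) took 3.20% ± 0.102 and 3.32% ± 0.145, and the 2 subunits of the ATP synthase (complex V) 3.20% ± 0.139 and 3.36% ± 0.130 (SD, n = 5). The groups overlapped in each complex, and no test was made of these sums.

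Levels between genes were compared per length, as RSEM counts with the copy added per 100-base window inside the gene, divided by the RSEM total of the heart (CPM per window). mt-Co1 was highest at 63.9 ± 1.81 (SD, n = 10 hearts), followed by mt-Atp6 at 52.2 ± 2.29, mt-Co2 at 51.3 ± 2.41 and mt-Co3 at 47.3 ± 1.61. mt-Cytb followed at 31.2 ± 1.29, mt-Nd1 at 26.6 ± 1.35, mt-Nd4 at 24.7 ± 1.16, mt-Atp8 at 22.8 ± 6.28, mt-Nd2 at 20.6 ± 1.25, mt-Nd4l at 19.0 ± 1.85, mt-Nd5 at 12.7 ± 0.898 and mt-Nd3 at 12.4 ± 1.12. The rRNA genes were lower, mt-Rnr2 at 4.75 ± 0.312 and mt-Rnr1 at 3.05 ± 0.262, in libraries that select poly-A RNA. mt-Nd6, the sole protein gene of the other strand, was lowest at 0.445 ± 0.0572, in the same poly-A libraries, whose capture of each RNA was not tested. This order held in all 10 hearts between most neighbours. mt-Atp6 lay above mt-Co2 and mt-Nd2 above mt-Nd4l in 8 hearts each, mt-Nd1 above mt-Nd4 in 9 and mt-Atp8 above mt-Nd2 in 7, and the order of mt-Nd4 and mt-Atp8 and that of mt-Nd5 and mt-Nd3 were split, with 5 of 10 hearts either way. On this scale the adjacent mt-Atp8 and mt-Atp6, which share 43 bases of 1 mRNA, differed by more than the spread of either, and mt-Atp8 had the widest spread between hearts among these 15 genes. The scale takes reads to fall evenly on all windows of an mRNA, which was not tested. It rests on 105 windows in mt-Atp8 and 582 in mt-Atp6.

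STAR counts were then compared between training and sedentary hearts with edgeR. Genes with enough counts to be tested were 7 of 13 protein genes, both rRNA genes and 7 of 22 tRNA genes. Of these 16 members, 1 was called at an FDR below 0.1, as the study sets it, and it was lower after training; 7.01% of all 15454 tested genes were called and 4.26% were called lower. The log2 fold change was below 0 in 11 of the 16 and above 0 in 5, with a median of −0.048. Of all 15454 tested genes, 7716 were below 0, with a median of 0.00026. Without a TMM correction, on library totals alone, 8 members lay on either side and their median was 0.0077. On that scale 5213 of all tested genes were below 0, and the median of all was 0.053. The STAR levels of 0 of the 16 members were without overlap between the groups, against 5.06% of all tested genes.

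The gene that was called is mt-Tm (ENSMUSG00000064344), the methionine tRNA gene between mt-Tq and mt-Nd2. It is printed here, with the anticodon in capitals, because it is shorter than a read (chrM:3845-3913, + strand).
mt-Tm: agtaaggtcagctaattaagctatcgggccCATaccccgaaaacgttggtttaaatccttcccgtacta
mt-Tm stood at 17.0, 14.0, 18.5, 14.8 and 14.9 CPM in training hearts 1 to 5 and at 18.3, 20.9, 22.6, 24.8 and 18.2 CPM in sedentary hearts 1 to 5. Training heart 3 exceeded sedentary hearts 1 and 5, and the other training hearts lay below all sedentary hearts. The log2 fold change was −0.40 (SE 0.096, adjusted p = 0.0406 over all genes, edgeR quasi-likelihood F test). It stayed below an FDR of 0.1 in 8 of the 10 fits that left out 1 heart, with an adjusted p of 0.101 without training heart 4 and 0.107 without sedentary heart 3. The gene has 69 bases, no window fits inside it, and each of its 40 countable windows also covers the stretch opposite to mt-Tq. These counts are therefore reads that run across the border of the tRNA.

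The same holds for the other tRNA genes, which are between 59 and 75 bases long. For 11 of the 22, STAR could count no window, and their highest count in any heart was 1. Another 4, mt-Ta, mt-Tn, mt-Tc and mt-Ty, were not tested, with at most 31 counts. RSEM, which needs a read to lie within a transcript, gave no tRNA gene more than 2 counts in any heart. Of the tested tRNA genes, mt-Ti (isoleucine) stood at 120 ± 8.56 CPM after training and 123 ± 22.6 CPM in sedentary hearts, with a log2 fold change of −0.034. mt-Tw (tryptophan) stood at 53.3 ± 4.40 and 50.6 ± 2.46 CPM (0.075), and mt-Tq (glutamine) at 5.11 ± 1.49 and 4.69 ± 0.930 CPM (0.13). mt-Tt (threonine) stood at 0.610 ± 0.243 and 0.480 ± 0.150 CPM (0.34), and mt-Tp (proline) at 3.38 ± 1.04 and 2.48 ± 0.726 CPM (0.45; SD, n = 5 each). None of these 5 passed the threshold, the lowest adjusted p being 0.298 for mt-Tp (edgeR). mt-Te (glutamate) had the largest fold change, 1.10 on the log2 scale (SE 0.74, adjusted p = 0.449, edgeR), which rests on training heart 1. Its counts were 100, 17, 18, 5 and 5 in training hearts and 10, 4, 38, 12 and 8 in sedentary hearts, and without training heart 1 the log2 fold change was −0.24.

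Among the protein and rRNA genes counted by STAR, none was called. mt-Nd2, a subunit of the proton-pumping arm of complex I, came nearest. It stood at 22817, 20970, 19723, 21221 and 20565 CPM in training hearts and at 22532, 23809, 21762, 25065 and 26240 CPM in sedentary hearts. Training heart 1 lay above 2 sedentary hearts and the other 4 below all of them. The log2 fold change was −0.18 (SE 0.065, adjusted p = 0.143, edgeR), and it passed the threshold without sedentary heart 1 (adjusted p = 0.0773) and in DESeq2 (0.0406). The log2 fold changes of mt-Nd1, mt-Cytb, mt-Nd4, mt-Co1 and mt-Nd5 were −0.12, −0.11, −0.090, −0.088 and −0.061, with standard errors between 0.065 and 0.080. Those of mt-Rnr2 and mt-Rnr1 were −0.035 and −0.0027. On library totals alone both were above 0, at 0.020 and 0.052, where the median of all genes was 0.053.

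**Figure D4:**
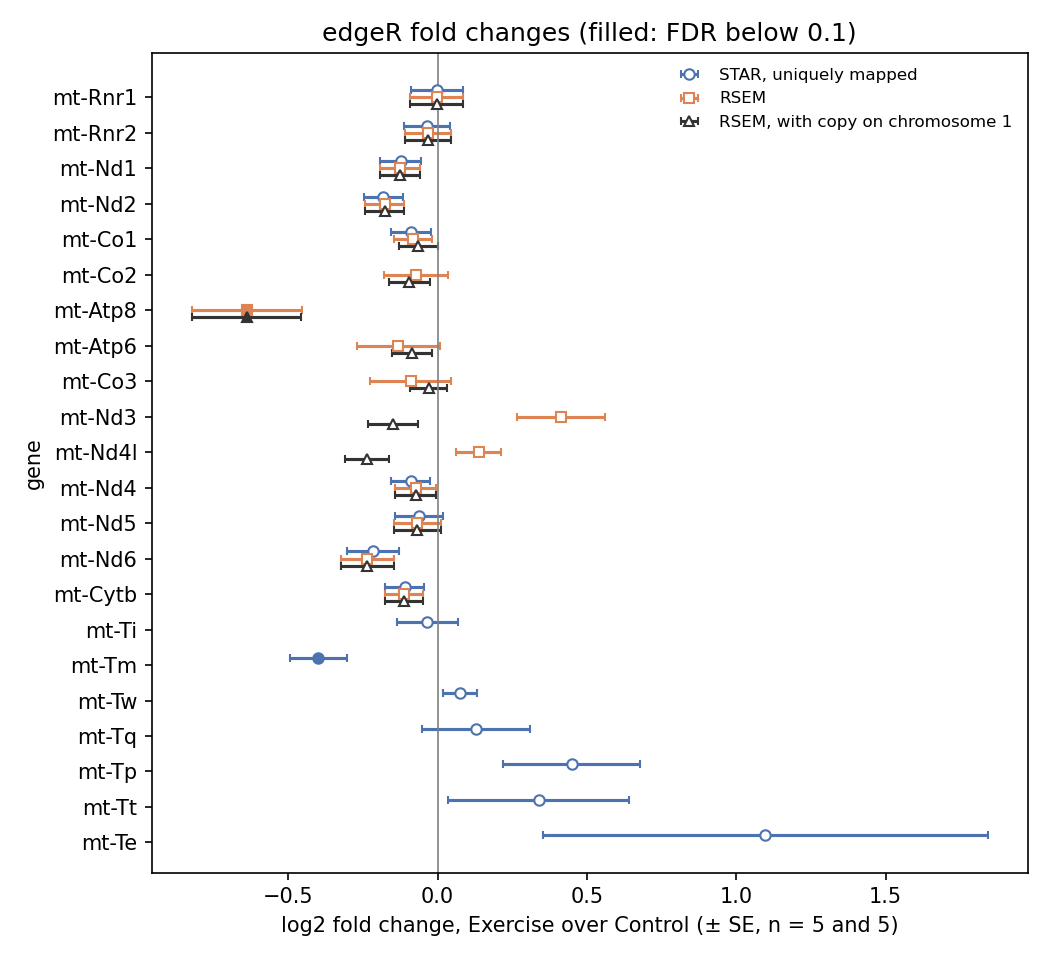
edgeR log2 fold change of training over sedentary hearts ± SE (x axis) for the 22 mitochondrial genes tested in at least 1 count table (y axis), by STAR, RSEM and RSEM with the chromosome 1 copy added; filled symbols have an FDR below 0.1. mt-Tm by STAR and mt-Atp8 by both RSEM counts are filled, and mt-Nd3 and mt-Nd4l move from above to below 0 when the copy is added.

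With the copy added, the 13 protein genes and both rRNA genes could be tested, and all 15 log2 fold changes were below 0, with a median of −0.094. Of all 15893 tested genes, 7956 were below 0, with a median of −0.00024. On library totals alone 12 of the 15 members were below 0, against 5268 of all tested genes. There the median was −0.037 for the members and 0.056 for all genes. 1 of the 15 was called, lower after training, against 6.24% of 15893 tested genes called in either direction and 3.88% called lower. Groups without overlap were found for mt-Atp8 and mt-Nd4l, 2 of 15, against 5.14% of all tested genes.

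mt-Atp8 (ENSMUSG00000064356), a small membrane subunit of the ATP synthase, was the gene called. Its 204 bases are printed because all of them stand in the chromosome 1 copy; capitals mark the 43 bases that are also the start of mt-Atp6 (chrM:7766-7969, + strand).
mt-Atp8: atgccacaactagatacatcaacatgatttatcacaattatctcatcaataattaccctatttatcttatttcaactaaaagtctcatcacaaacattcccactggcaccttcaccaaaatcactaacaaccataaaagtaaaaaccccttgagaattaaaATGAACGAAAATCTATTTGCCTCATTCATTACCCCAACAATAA
mt-Atp8 stood at 2535, 1805, 2377, 1635 and 1045 CPM in training hearts 1 to 5 and at 2577, 2883, 2957, 3363 and 2852 CPM in sedentary hearts 1 to 5. All training hearts lay below all sedentary hearts, training hearts 1 and 3 near the lowest sedentary heart and heart 5 far below. The log2 fold change was −0.64 (SE 0.18, adjusted p = 0.0781, edgeR). In the fits that left out 1 heart it lay between −0.77 and −0.49, and the adjusted p, between 0.0468 and 0.171 (edgeR), stayed below 0.1 in 4 of 10. No pseudogene of the copy is annotated for mt-Atp8, and its RSEM count was a whole number in 9 of 10 hearts, within 0.005, so that RSEM made almost no division here. The neighbour mt-Atp6, on the same mRNA, was at 29552 ± 1938 CPM in training hearts, with a log2 fold change of −0.085 (adjusted p = 0.520, edgeR), and mt-Co2, on the other side, was at 29096 ± 2065 CPM with −0.094 (adjusted p = 0.491). RSEM needs a read to lie within a transcript, and 105 windows of 100 bases lie inside mt-Atp8, against 582 inside mt-Atp6. Whether length or place on the mRNA has a part in the mt-Atp8 values was not tested.

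For mt-Nd3 and mt-Nd4l, the subunits of complex I encoded next to each other in the copied stretch, the direction turned on the pseudogene. On the RSEM counts as deposited, 1 of 15 members, again mt-Atp8, was called, against 6.21% of all genes in either direction and 3.86% lower. As RSEM gave it, the log2 fold change of mt-Nd3 was 0.41 (SE 0.15, adjusted p = 0.150, edgeR) and with the copy added it was −0.15 (SE 0.084, adjusted p = 0.346). For mt-Nd4l it was 0.14 (SE 0.076, adjusted p = 0.342) and with the copy added −0.23 (SE 0.074, adjusted p = 0.107). mt-Nd4l then stood at 3758, 3490, 3753, 3431 and 2938 CPM in training hearts and at 3788, 4299, 3834, 4548 and 3972 CPM in sedentary hearts. The groups did not overlap, training heart 1 lying just below sedentary heart 1. Both genes passed the threshold without training heart 1, mt-Nd3 with an adjusted p of 0.0651 and mt-Nd4l with 0.0905 (edgeR). With the copy added, the neighbour mt-Nd4, whose start overlaps the end of mt-Nd4l, had a log2 fold change of −0.073 (adjusted p = 0.612, edgeR). In the same fit mt-Co2 and mt-Co3 had log2 fold changes of −0.094 and −0.030 and were not called. That of mt-Co3 was 0.028 on library totals alone, where the median of all genes was 0.056.

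The ratio of the RSEM to the STAR count of each gene was compared between the groups with limma. It was called for 0 of 16 members and 0% of 15454 genes at an FDR below 0.1, while 5 members had an unadjusted p under 0.05 (mt-Rnr2, mt-Nd1, mt-Nd5, mt-Nd6 and mt-Cytb). Of the 16, 7 are tRNA genes with at most 2 RSEM counts in any heart, whose ratio holds next to no RSEM value, and none is a gene copied whole on chromosome 1. For the 9 members with at least 10 counts in both tables, 0 were called. The log2 ratios of the 5 differed by between −0.021 for mt-Nd6 and 0.0027 for mt-Rnr2.

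The forward column of the STAR tables holds reads from the strand opposite to a gene. In training heart 1 these counts were 0.473% of the sense counts for mt-Co1, 0.443% for mt-Nd1 and 0.421% for mt-Cytb. In the other training hearts the 3 genes lay between 0.0437% and 0.137%, and in sedentary hearts between 0.0352% and 0.232%, with sedentary heart 3 highest. The same hearts stood out among nuclear genes. Over 293 nuclear protein genes with at least 10000 sense counts in every heart, the median forward share was 0.620% in training heart 1, 0.340% in sedentary heart 3 and 0.230% in training heart 3, and between 0.0521% and 0.0954% in the other 7. mt-Nd2 and mt-Nd4 exceeded that median by between 0.0446 and 0.284 percentage points, in all 10 hearts. mt-Nd5, which lies beside mt-Nd6 of the other strand, had a forward share of between 1.82% and 2.64% and exceeded the nuclear median in every heart, by 1.76 to 2.47 percentage points.

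**Figure D5:**
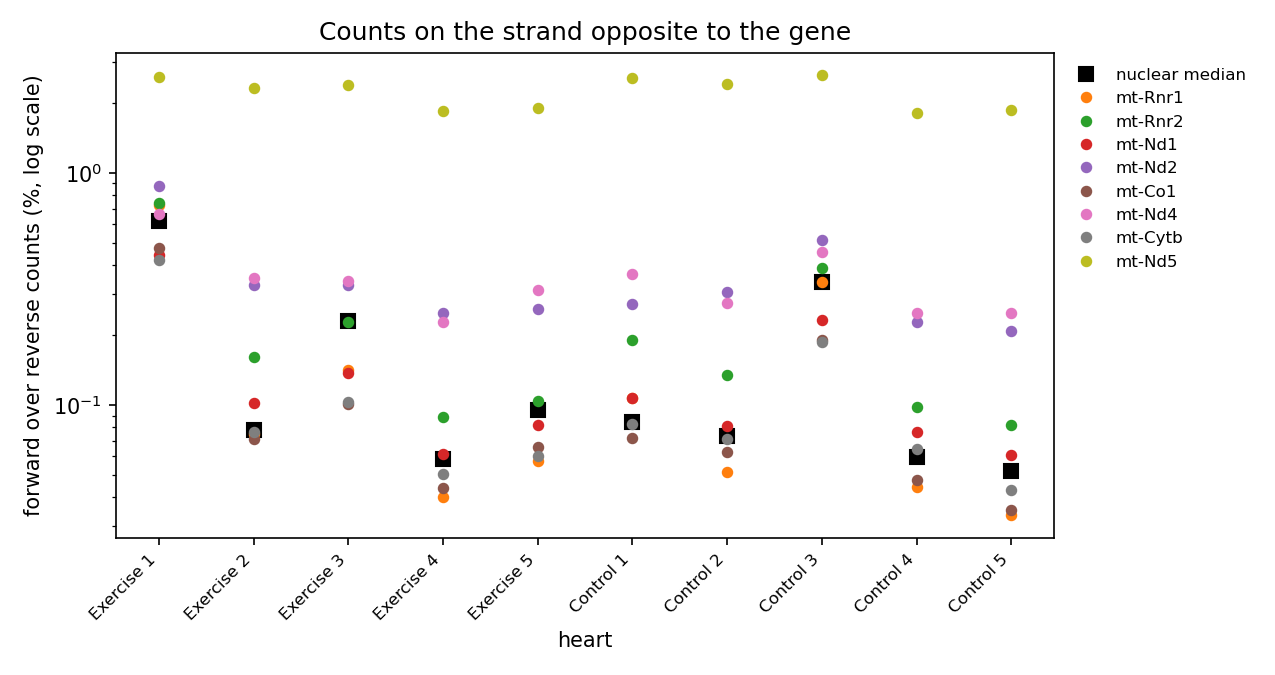
Forward counts as percent of reverse counts on a log scale (y axis) in each heart (x axis), for mitochondrial genes of the + strand and for the median of 293 abundant nuclear protein genes (black squares). Training heart 1 and sedentary heart 3 are high for the nuclear median and for most mitochondrial genes, while mt-Nd5 stays between 1.82% and 2.64%.

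For genes of the other strand, the forward column holds the abundant RNA. Over mt-Nd6 (ENSMUSG00000064368, chrM:13552-14070, - strand), a complex I subunit, it held between 283190 and 371239 counts per heart, against 5688 to 10983 on the sense strand, a ratio of 25.8 to 51.4. The column without strand gave mt-Nd6 a mean of 268583 counts, so that this number is mostly RNA of the opposite strand, while the RSEM mean of 8025 lay near the sense mean of 8693. On the sense strand mt-Nd6 stood at 268, 226, 250, 197 and 189 CPM in training hearts and at 256, 265, 292, 249 and 249 CPM in sedentary hearts. Training hearts 1 and 3 lay within the sedentary range and the other 3 below it, and the log2 fold change was −0.22 (SE 0.087, adjusted p = 0.186, edgeR; 0.0697 without training heart 1). The forward count of mt-Nd6 times the nuclear forward share of the same heart came to 1904 counts in training heart 1, 962 in sedentary heart 3 and 173 to 689 in the other hearts.

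After that product was taken off, in an adjustment chosen after the values were seen, mt-Nd6 stood at 214, 219, 231, 192 and 179 CPM in training hearts and at 249, 259, 267, 243 and 244 CPM in sedentary hearts. The adjusted values of the groups did not overlap, with means of 207 ± 21.1 and 252 ± 10.2 CPM (SD, n = 5); unadjusted levels were without overlap for 5.06% of all tested genes. With the forward share of mt-Cytb in place of the nuclear one the means were 214 ± 25.2 and 255 ± 14.5 CPM, and without an adjustment 226 ± 33.9 and 262 ± 18.0 CPM. Since gene and adjustment were chosen on these values, the adjusted levels are a description with no test. For mt-Te the product was 79.5 counts in training heart 1, where 100 were counted, and 43.0 in sedentary heart 3, where 38 were counted.

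The ratio of forward to reverse counts was compared between the groups with limma, over 14 members and 3086 genes with at least 10 counts on each strand in at least 5 hearts. It was called for 0 of 14 members and 0% of all genes. For the protein and rRNA genes of the + strand the SE of the log2 ratio was wide. It lay between 0.82 for mt-Nd4 and 1.37 for mt-Co1, so that this test says little about them. 1 member, mt-Tp, had an unadjusted p under 0.05, and its adjusted p from limma was 0.171. mt-Tp, the proline tRNA gene at the edge of the control region, is read from the - strand. Its forward counts were 1158, 788, 1202, 537 and 417 in training hearts and 1131, 1221, 1548, 1578 and 1206 in sedentary hearts, and its sense counts 181, 122, 106, 96 and 74 against 107, 104, 113, 86 and 46. The log2 ratio of forward to sense counts differed by −1.15 (SE 0.27), the ratio lying between 5.59 and 11.3 in training hearts and between 10.6 and 26.2 in sedentary hearts. Training heart 3 alone overlapped the sedentary range.

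The nuclear genes that maintain and express mitochondrial DNA were taken from 6 hand-written lists with 56 genes, all of which were tested on the STAR counts. Of these, 7 were called lower after training and 0 higher (edgeR), against 4.26% of all genes called lower, with 42 log2 fold changes below 0 and a median of −0.065. On library totals alone 3 were called lower and 1 higher, against 2.19% of all genes called lower and 6.66% called higher. There the median was −0.013 for these genes and 0.053 for all genes, which stood at 0.00026 with TMM factors.

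Of 8 genes of mitochondrial transcription, 2 were lower. Tfb2m, which melts the promoter for the polymerase, stood at 23.1 ± 0.732 CPM in training hearts and 26.3 ± 2.11 CPM in sedentary hearts (log2 fold change −0.19, SE 0.056, adjusted p = 0.0840, edgeR), and Mrpl12, a ribosomal protein that also binds the polymerase, at 116 ± 8.87 and 133 ± 3.68 CPM (−0.19, adjusted p = 0.0573). When hearts were left out 1 at a time, Mrpl12 kept its call in 4 of 10 fits and Tfb2m in 3. On the RSEM expected counts the log2 fold change of Tfb2m was −0.063, which did not pass (adjusted p = 0.482, edgeR). The polymerase gene itself, Polrmt, stood at 36.7 ± 2.34 and 41.7 ± 3.70 CPM and did not pass (−0.18, adjusted p = 0.128). None of 10 genes of DNA maintenance was called, and Tfam, which packages mitochondrial DNA, stood at 38.8 ± 2.65 and 40.5 ± 1.88 CPM (−0.062, adjusted p = 0.559).

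Of 8 genes of RNA processing, 3 were lower. Trmt10c, a subunit of the enzyme that cuts the 5′ ends of tRNAs, stood at 16.4 ± 1.22 CPM in training hearts and 19.4 ± 0.798 CPM in sedentary hearts (−0.24, SE 0.058, adjusted p = 0.0427, edgeR). Ptcd1 and Ptcd2, RNA-binding proteins with pentatricopeptide repeats, had log2 fold changes of −0.20 (adjusted p = 0.0418) and −0.16 (0.0877). With each heart left out in turn, Trmt10c was called in 8, Ptcd1 in 9 and Ptcd2 in 3 of 10 fits. Of 10 genes of mRNA stability and polyadenylation, Tbrg4, which binds mitochondrial mRNAs, stood at 67.9 ± 3.55 and 78.1 ± 3.09 CPM (−0.20, SE 0.045, adjusted p = 0.0316, edgeR) and kept its call whichever of the 10 hearts was left out. Pde12, a deadenylase, had a log2 fold change of −0.16 (adjusted p = 0.0961), a call kept in 1 of those fits. Lrpprc, which stabilises most mitochondrial mRNAs, stood at 234 ± 10.7 and 240 ± 16.1 CPM (−0.036, adjusted p = 0.748). No gene was called among 4 of RNA decay and 16 of tRNA and rRNA modification. Without training heart 3 or 4, 2 of the 56 genes were called, and without training heart 5 or sedentary heart 2, 3 or 4 the number was 3 or 4; in these 6 fits the share of all genes called fell too, to between 3.29% and 4.71%.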

How the data were processed

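RNA of 10 whole hearts was sequenced as directional poly-A libraries with single reads of 100 bases, in 1 pool. Per the labels and methods, the authors aligned the reads to GRCm39 with STAR 2.7.10a and deposited, per gene, the raw count of reads with a unique match on either strand and on both. They also deposited expected counts and TPM from RSEM 1.3.3, with the gene lengths behind them; the strand setting of RSEM is not given in the sources used here. None of the counts was normalized. TPM were not tested.

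Groups came from the labels. The reverse column, which holds the sense strand, was compared with edgeR 4.0.16 in R 4.3.3 (TMM factors, genes kept by filterByExpr, quasi-likelihood F test, Benjamini-Hochberg adjustment over all tested genes) at an FDR below 0.1; RSEM counts were rounded first. Ratios were tested on log2 values with a pseudocount of 1 by limma 3.58.1 with a trended prior. DESeq2 1.42.0 was an alternative. Nuclear copies were found with BLAST 2.17.0 (at least 90% identity), and windows of 100 bases were looked up exactly in the genome. Symbols came from GENCODE M39 and matched 56017 of 56748 identifiers; the sequences were read from GRCm39. The steps were tested on simulated data. There the noise of the forward share was drawn for each gene and heart alone, without the library-wide shift seen here.

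Named were all members, Tfam, Polrmt, Lrpprc and the called machinery genes. The members, lists and tests were chosen with earlier results of these data known. The labels number the hearts as mice of a group, and p-values measure the spread between them. Same-numbered hearts were not used as pairs. Reads on no single gene entered neither library sizes nor tests, and multimapping reads were 17.9% to 19.2% of all reads.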

Additional observations from a re-analysis of the deposited data

Results flagged for a closer look

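Among 126 groups of 5 hearts, 16 values stood apart by Dixon's test, where chance gives about 1 in 20. Training heart 1 was apart in mt-Te, at 2.83 CPM against 0.156 to 0.487 in the other training hearts, and sedentary heart 3 at 1.01 CPM against 0.117 to 0.341 in its group. In forward counts as percent of sense counts, training heart 1 was apart for mt-Rnr1 (0.728%), mt-Rnr2 (0.741%), mt-Nd1 (0.443%), mt-Nd2 (0.877%), mt-Co1 (0.473%), mt-Nd4 (0.665%) and mt-Cytb (0.421%). Sedentary heart 3 was apart for mt-Rnr1 (0.339%), mt-Nd1 (0.232%), mt-Co1 (0.191%), mt-Cytb (0.187%) and the median of abundant nuclear protein genes (0.340%). The part of this library-wide forward share in the values of single genes was described for mt-Nd6 and mt-Te only, and was not tested.

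Sedentary heart 3 also stood apart in the reads that RSEM gave to Gm28661, the pseudogene of mt-Co2, with 25.1% against 0.0213% to 2.51% in the other sedentary hearts. Sedentary heart 1 was apart for Tbrg4, at 72.6 CPM against 78.8 to 80.2 CPM.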

How the results depend on the processing

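The number of mitochondrial genes called, 1 by STAR and edgeR, was 2 with DESeq2 (mt-Tm and mt-Nd2), where 1407 of 30019 genes were called. It was 2 without a filter on low counts (mt-Tm and mt-Atp8), where 1065 of 30041 genes were called. That call of mt-Atp8 rests on STAR counts of at most 1 in training hearts and 8 in sedentary hearts. The number was 0 in the counts of both strands, where mt-Tm had too few counts to be tested. With each heart left out it ranged from 0 to 2, while between 3.29% and 9.58% of all genes were called. With the chromosome 1 copy added, chosen after seeing the data, it ranged from 0 to 4. The 4 were without training heart 1, where 933 of 16070 genes were called. The number of machinery genes, 7, was 3 at an FDR below 0.05, where 505 of 15454 genes passed. It was 4 on library totals alone (1368 of 15454 genes) and 1 on library totals with the copy added (991 of 15893). With each heart left out it was 2 to 9. With the copy added and each heart left out it was 2 to 7. Those fits with the copy added called between 457 of 16046 and 1347 of 15995 genes. The ratio of forward to sense counts was called for 1 member, mt-Tp, with at least 50 counts on each strand (adjusted p = 0.0403, limma). In that setting 39 of 937 genes were called. With each heart left out the ratio was called for 0 to 1 members. The 1 was without training heart 3, where 9 of 3086 genes were called. No alternative called a ratio of RSEM to STAR. The difference in share stayed within the spread under each alternative, between −0.692 and −0.501 percentage points, and between −0.981 and −0.262 with each heart left out.

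With the mouse number as a replicate block, 2 mitochondrial genes were called (mt-Tm and mt-Nd6), among 1137 of all 15454 tested genes. The deviations of same-numbered hearts correlated between −0.097 and 0.16, and 3 of 10 hearts correlated best with their own number, so that the block was not taken as a pairing.

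Directions turned for small changes and for some larger ones. On library totals alone the log2 fold changes of mt-Rnr1, mt-Rnr2, mt-Ti and Lrpprc were 0.052, 0.020, 0.024 and 0.018, and that of mt-Co3 with the copy added 0.028; without the mitochondrial genes in library sizes that of mt-Rnr1 was 0.0016. In both strands mt-Tp was at −0.62. Its mean count there was 1086, against 1079 on the forward strand and 103.5 on the sense strand. As RSEM gave them, without the reads of the pseudogene, mt-Nd3 and mt-Nd4l were at 0.41 and 0.14. With each heart left out the ranges were −0.070 to 0.043 for mt-Rnr1, −0.082 to 0.0098 for mt-Rnr2, −0.24 to 1.84 for mt-Te, −0.097 to 0.042 for mt-Ti, −0.050 to 0.22 for mt-Tq and −0.061 to 0.0038 for Lrpprc. The median log2 fold change of all 15454 tested genes was 0.053 on library totals alone, against 0.00026 with TMM factors. It was 0.0046 without the mitochondrial genes in library sizes. With the copy added it was 0.056 on library totals alone, against −0.00024 with TMM factors. Why directions turned with hearts left out was not tested. At the depth of these libraries mt-Te, mt-Tt and mt-Tp had under 200 sense counts in every heart, and counting errors do not cover the division of shared reads.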
